A study of Arabidopsis thaliana with 36 samples.

Results

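The Aux/IAA and ARF genes encode the nuclear part of auxin signalling, and their messenger RNA was followed on both sides of a graft junction in Arabidopsis thaliana. The 44 genes described were taken by locus identifier from a table of raw read counts over 33341 loci. They comprise 29 Aux/IAA genes and 15 ARF genes, and all 44 had a row in the table. A filter on low counts left 19476 loci for testing, among them 25 Aux/IAA genes and all 15 ARF genes. IAA6, IAA15, IAA32 and IAA33 did not pass it and are given only as levels.

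Auxin response factors (ARF) bind DNA upstream of auxin-responsive genes, and Aux/IAA proteins bind ARF proteins and recruit TOPLESS corepressors that keep these genes off. Auxin joins an Aux/IAA protein to the receptors TIR1 and AFB, parts of a ubiquitin ligase, and the Aux/IAA protein is then destroyed, which frees the ARF protein. Many Aux/IAA genes are themselves switched on by ARF proteins within minutes of auxin treatment, so that the pathway makes its own brake. In the hypocotyl the families are known for growth towards light, for vascular patterning and for the start of new roots.

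The samples were hypocotyls of 7-day-old seedlings of 4 genotypes: Col-0, the wild type, and mutants labelled dof quadruple, erf114,115 and anac071,096, which are named for transcription factor genes. From each genotype came 1 mm of uncut hypocotyl (intact), 0.5 mm from above the junction (scion) and 0.5 mm from below it (rootstock), the grafted pieces 24 h after grafting. This gave 12 groups of 3 biological replicates, or 36 libraries of polyA RNA. A cotyledon was removed from every plant, intact ones included, and a graft joined the shoot and root parts of different plants. The labels do not give the alleles of the mutants.

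Library totals ran from 19.5 to 30.5 M counts (M for mega) with a median of 23.8 M. Levels are in CPM, counts per M counts of a library after scaling by edgeR's TMM factors. Col-0 rootstock replicate 1 stood apart: 2514 loci were counted in it and in none of the other libraries, against 8 to 34 such loci in each of the other 35. The Col-0 rootstock calls are therefore also given without it. Of the genes the mutants are named for, ERF115 was at 54.7 to 70.7 CPM in Col-0 scions and at 0.498 to 1.61 in erf114,115 scions, ANAC096 at 29.0 to 38.0 and at 5.36 to 7.16 CPM in anac071,096 scions, and DOF6 at 1.64 to 2.47 CPM and at 0 in dof quadruple scions. ERF114 was at 49.3 to 63.4 CPM in Col-0 scions and at 6.13 to 7.25 in erf114,115 scions. ANAC071 was at 18.67 to 27.35 CPM in Col-0 scions and at 4.55 to 8.3 in anac071,096 scions. That DOF6 is a target of the dof quadruple mutant is general knowledge of this line and not in the labels. Of the other DOF genes of that line, HCA2 was higher in its scions than in Col-0 scions (72.3 to 88.5 against 20.5 to 26.7 CPM), while TMO6 (39.3 to 54.6 against 116 to 120) and DOF2.1 (138.7 to 153 against 233 to 250.4) were lower without overlap.

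The element that auxin acts on is a short core of the Aux/IAA degron, glycine, tryptophan and a pair of prolines followed by valine or isoleucine. It was found in the reference protein of 22 of the 29 Aux/IAA genes and of 0 of the 15 ARF genes. IAA10, IAA20, IAA30, IAA31, IAA32, IAA33 and IAA34 had no match to this pattern. A core with another last residue was not sought, so a gene without a match need not lack a degron. The coding windows of 7 members that carry the results are shown to compare their cores, read from the RefSeq genome TAIR10.1 in the sense of the gene, with the 5 core codons in capitals.
IAA1: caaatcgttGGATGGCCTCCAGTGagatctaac
IAA19: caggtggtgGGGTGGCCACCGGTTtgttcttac
IAA11: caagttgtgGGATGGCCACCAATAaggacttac
IAA14: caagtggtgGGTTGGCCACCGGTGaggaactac
IAA27: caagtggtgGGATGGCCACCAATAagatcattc
IAA28: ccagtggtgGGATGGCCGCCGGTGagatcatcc
IAA29: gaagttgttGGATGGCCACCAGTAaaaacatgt
These lie in the reading frame at chr4:8361436-8361468 (plus strand, IAA1), chr3:5264307-5264339 (plus, IAA19), chr4:14143003-14143035 (plus, IAA11), chr4:8349475-8349507 (minus, IAA14), chr4:14324651-14324683 (minus, IAA27), chr5:9033812-9033844 (plus, IAA28) and chr4:15583942-15583974 (plus, IAA29). IAA11 and IAA27 have isoleucine as the last core residue and the other 5 have valine. Genes with such a core were found among those that rose (IAA1, IAA19, IAA11) and among those that fell (IAA14, IAA27, IAA29).

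Some ARF messages are cut by small RNAs. The sites are shown because ARF8 and the class C gene ARF17 fell in the scions of all 4 genotypes. ARF10 and ARF16 fell in those of Col-0 and dof quadruple. The mature miRNAs are printed with the seed, bases 2 to 8, in capitals.
miR160a-5p: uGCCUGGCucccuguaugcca
miR167a-5p: uGAAGCUGccagcaugaucua
The best site of each member is printed 5′ to 3′ on the gene's strand. Bases that match the exact complement of the miRNA are in capitals, so that a base in a G to U pair stays in lower case.
ARF17: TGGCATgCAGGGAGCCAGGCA
ARF10: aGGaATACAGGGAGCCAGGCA
ARF16: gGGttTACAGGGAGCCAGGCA
ARF8: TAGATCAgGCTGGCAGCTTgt
ARF6: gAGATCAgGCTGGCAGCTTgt
From the exact complement of miR160, ARF17 departed at 1 base (chr1:29274189-29274209, plus), ARF10 at 2 (chr2:12115741-12115761, plus) and ARF16 at 3 (chr4:14704141-14704161, minus). The other 12 ARF genes departed from it at 8 or more bases at their best position. From that of miR167, ARF8 departed at 3 bases (chr5:14633841-14633861, plus) and ARF6 at 4 (chr1:10686478-10686498, minus), against at least 7 in the other 13.

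Letters of the auxin response element, TGTCTC or TGTCGG, were sought on both strands from 250 bases before to 50 after each gene's annotated start. TGTCTC was in the window of 12 of 29 Aux/IAA genes (41.4%), 1 of 15 ARF genes (6.67%) and 14.2% of 27443 protein-coding genes. TGTCGG was in 20.7%, 13.3% and 5.12% of these, and either motif in 55.2%, 20.0% and 18.7%. The upstream 250 bases of IAA19 (chr3:5263751-5264000, plus) and IAA1 (chr4:8360746-8360995, plus), early auxin-response genes that rose in scions, are printed with motifs in capitals, a motif on the minus strand as its reverse complement.
IAA19: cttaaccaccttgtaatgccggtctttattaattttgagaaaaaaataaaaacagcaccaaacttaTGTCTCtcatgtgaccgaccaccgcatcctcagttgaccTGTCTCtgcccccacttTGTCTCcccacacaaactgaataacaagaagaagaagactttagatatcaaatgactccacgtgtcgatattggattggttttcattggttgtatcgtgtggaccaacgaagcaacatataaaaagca
IAA1: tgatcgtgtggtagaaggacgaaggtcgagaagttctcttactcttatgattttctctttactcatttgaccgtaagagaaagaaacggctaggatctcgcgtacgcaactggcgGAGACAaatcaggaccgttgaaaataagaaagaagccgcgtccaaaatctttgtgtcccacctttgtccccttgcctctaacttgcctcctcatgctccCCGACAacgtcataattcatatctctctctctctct
IAA19 held TGTCTC at 3 places and IAA1 held each motif at 1. Of the 6 Aux/IAA genes that rose in the scions of all 4 genotypes, IAA1, IAA5, IAA19 and IAA20 held a motif and IAA9 and IAA11 did not. A match is a description of letters and not of a bound site.

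In uncut hypocotyls a few members had far higher levels than the rest. On a scale of CPM per kilobase of transcript, which allows genes to be compared, IAA7 (AXR2) was highest in intact Col-0 hypocotyls at 534 ± 52.6 (SD, n = 3, as for all means given with an error). It was followed by IAA16 at 247 ± 12.7 and IAA9 at 98.1 ± 8.97 CPM per kilobase. IAA27 (89.6 ± 22.7) and ARF2 (84.7 ± 19.5), the highest ARF gene, came next and did not differ from IAA9 beyond their spread. IAA7, IAA16 and IAA9 kept these places in Col-0 scions and rootstocks. ARF5, which encodes MONOPTEROS, the activator that sets up the embryo's vascular axis, moved from place 30 of the 44 genes in intact tissue (4.11 ± 1.14 CPM per kilobase) to place 19 in scions (20.5 ± 1.60) and 18 in rootstocks (16.7 ± 0.628). IAA19 moved from place 34 (2.16 ± 1.66) to 18 in scions (20.7 ± 3.14) and 27 in rootstocks (4.57 ± 1.97).

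In the Col-0 scion some Aux/IAA genes rose and others fell, while of the ARF genes ARF5 alone rose and several fell. Of the 25 Aux/IAA genes tested, 8 rose and 6 fell relative to intact hypocotyl. Those that rose include IAA5 and IAA20, which passed the filter on low counts only through graft libraries, so their direction followed from it. Of the 15 ARF genes, 1 rose and 11 fell (edgeR quasi-likelihood test, adjusted p under 0.05). Over all 19476 loci tested, 29.0% rose and 25.2% fell, so that the Aux/IAA counts lay near the background and the share of falling ARF genes, 73.3%, lay above it. That share rests in part on intact replicate 2: without it 6 of 15 ARF genes fell (40%), against 22.4% of all loci in that fit. The median log2 change was 0.08 for Aux/IAA, -0.80 for ARF and 0.01 for all loci. All 26 called members had scion and intact libraries that did not overlap.

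**Figure D1:**
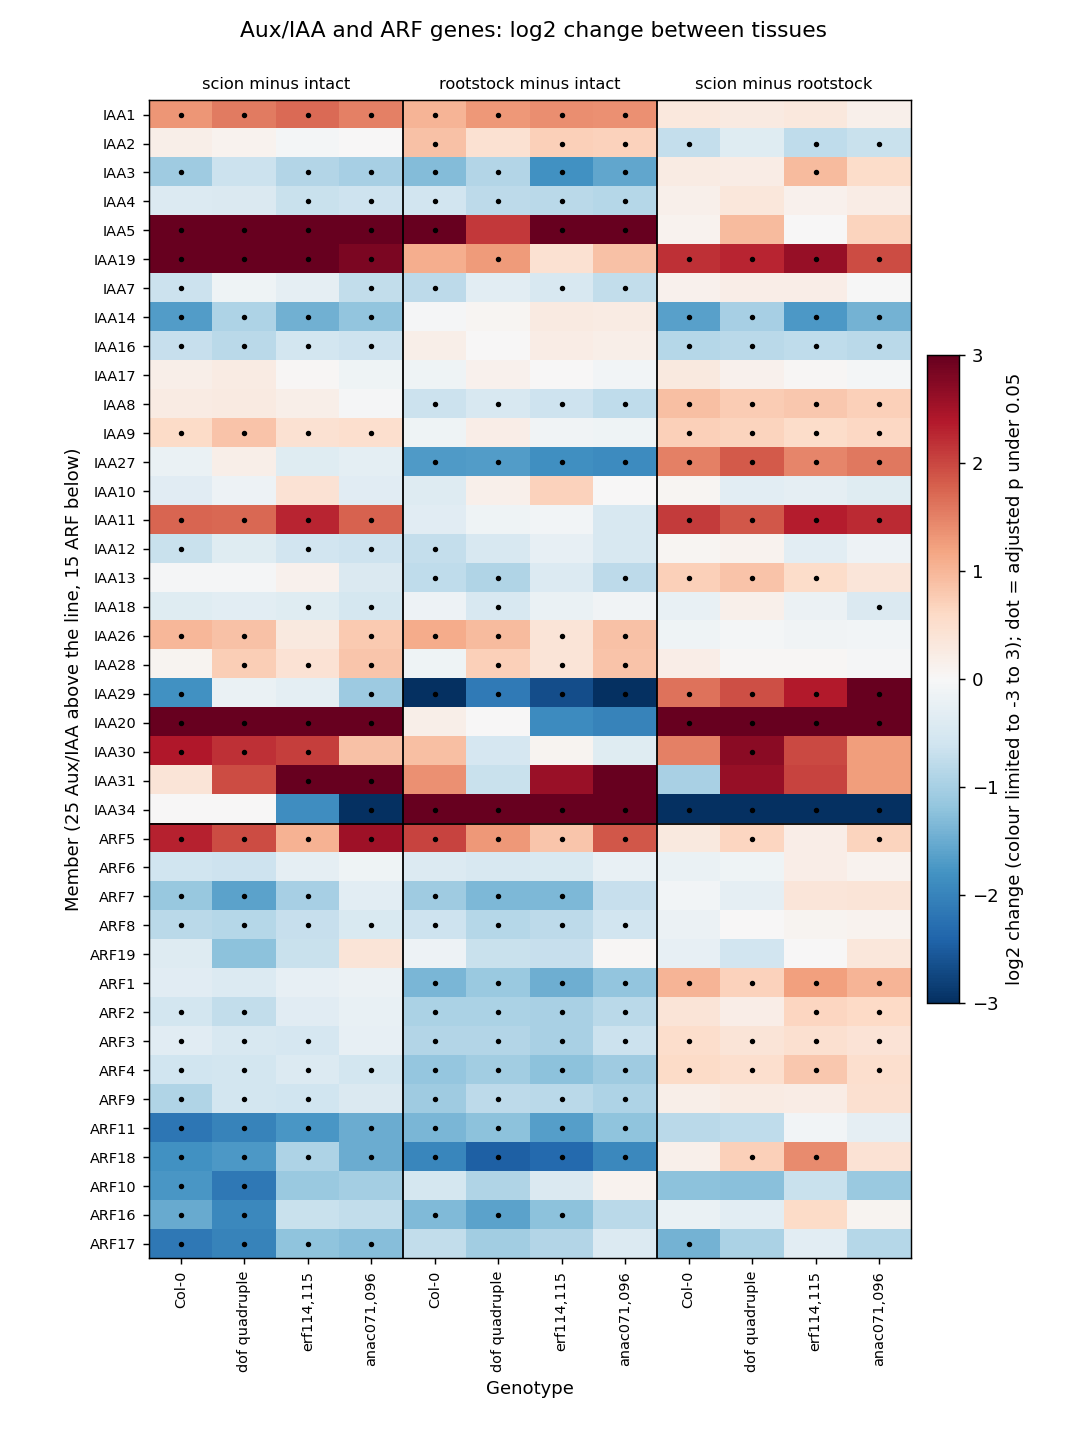
Log2 change of each of the 40 tested members (rows, Aux/IAA above the line and ARF below) between tissues in each genotype (columns), with a dot where the adjusted p was under 0.05. ARF5 was called higher in both graft tissues of all 4 genotypes, and between 5 (anac071,096 scions) and 11 (Col-0 and dof quadruple scions) of the 15 ARF genes were called lower than in intact tissue. Of all loci, 16.4% (anac071,096 rootstocks) to 25.6% (dof quadruple scions) were called lower. Some of these counts were smaller when a single library was left out, those of Col-0 and anac071,096 scions included.

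IAA19 (AT3G15540, MSG2), which restrains ARF7 in the bending of hypocotyls towards light, had the largest rise among members above 5 CPM. It stood at 0.781, 1.71 and 4.04 CPM in the intact Col-0 libraries, at 20.0, 18.4 and 24.5 in scions and at 2.99, 4.03 and 6.83 in rootstocks. The scion libraries were all above the other 6, and intact and rootstock libraries overlapped. Its log2 change was 3.27 ± 0.46 (SE, as for all log2 changes; adjusted p 5.26e-07) in scions and 1.08 ± 0.45 in rootstocks (adjusted p 0.0537, not past the threshold). IAA11 (AT4G28640), a gene of the group that holds the embryonic regulator IAA12, was at 2.30, 3.67 and 5.28 CPM in intact tissue, 11.3, 13.1 and 13.3 in scions and 1.74, 2.26 and 4.92 in rootstocks. It rose by 1.74 ± 0.34 in scions (adjusted p 6.62e-05), where all libraries were above the other 6, and its rootstock change of -0.34 ± 0.34 did not pass.

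IAA1 (AT4G14560, AXR5), an early auxin-response gene, was at 5.46, 13.2 and 6.20 CPM in intact tissue, 19.6, 21.1 and 21.4 in scions and 13.4, 14.1 and 22.7 in rootstocks. It rose on both sides, by 1.31 ± 0.30 in scions (adjusted p 3.98e-04) and by 1.01 ± 0.30 in rootstocks (adjusted p 0.00702), and the second call was lost without intact replicate 1 (adjusted p 0.0560) or rootstock replicate 3 (0.0716). IAA26 (AT3G16500) was at 31.2, 27.6 and 32.9 CPM in intact tissue, 60.5, 67.7 and 54.0 in scions and 56.2, 79.2 and 62.3 in rootstocks. Both graft tissues lay above intact tissue without overlap, at 0.99 ± 0.16 (adjusted p 7.79e-06) and 1.11 ± 0.17 (adjusted p 2.33e-06). IAA9 (AT5G65670), known in tomato as a repressor of fruit set, was at 197, 172 and 205 CPM in intact tissue and 307, 277 and 269 in scions. It rose in scions by 0.57 ± 0.16 (adjusted p 0.00275), and its rootstock change of -0.13 ± 0.16 did not pass. IAA5, close in sequence to IAA19, rose on both sides from 0.0350 to 0.0918 CPM in intact libraries to 1.34 to 1.98 in scions and 0.648 to 2.69 in rootstocks. In Col-0 only its graft libraries held enough counts for the filter, so this rise is given as a description. AT1G15570, which overlaps IAA5 on the opposite strand, was at 0.479 ± 0.333, 4.23 ± 1.07 and 2.27 ± 0.577 CPM in these tissues, and the strand setting of the counting is not given in the sources used here.

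Among the Aux/IAA genes that fell in the scion were 3 of the 4 members of the IAA7, IAA14, IAA16 and IAA17 group, which hold well-known stabilised alleles. IAA14 (AT4G14550, SOLITARY-ROOT), which blocks lateral root initiation when stabilised, was at 41.9, 49.3 and 49.7 CPM in intact tissue, 12.8, 14.9 and 16.6 in scions and 26.7, 41.3 and 69.5 in rootstocks. The scion libraries were the lowest 3 of the 9, and the rootstock libraries lay on both sides of the intact ones. It fell by 1.67 on the log2 scale in scions (SE 0.24, adjusted p 6.79e-07), and the rootstock change was -0.04 ± 0.23. IAA16 and IAA7 fell in scions by 0.68 and 0.65. IAA29 (AT4G32280), a gene switched on by shade, was at 7.62, 8.88 and 9.5 CPM in intact tissue, 2.19, 2.24 and 3.00 in scions and 0.498, 1.13 and 0.728 in rootstocks. The 3 tissues did not overlap, and it fell by 1.81 in scions (SE 0.36, adjusted p 8.12e-05) and by 3.44 in rootstocks (SE 0.40, adjusted p 2.9e-08). IAA3 (SHY2), which links cytokinin to auxin in the root meristem, and IAA12 (BODENLOS), the partner of ARF5 in the embryo, fell on both sides, by 1.07 and 1.31 and by 0.67 and 0.72. The scion call of IAA12 was lost without intact replicate 3.

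**Figure D2:**
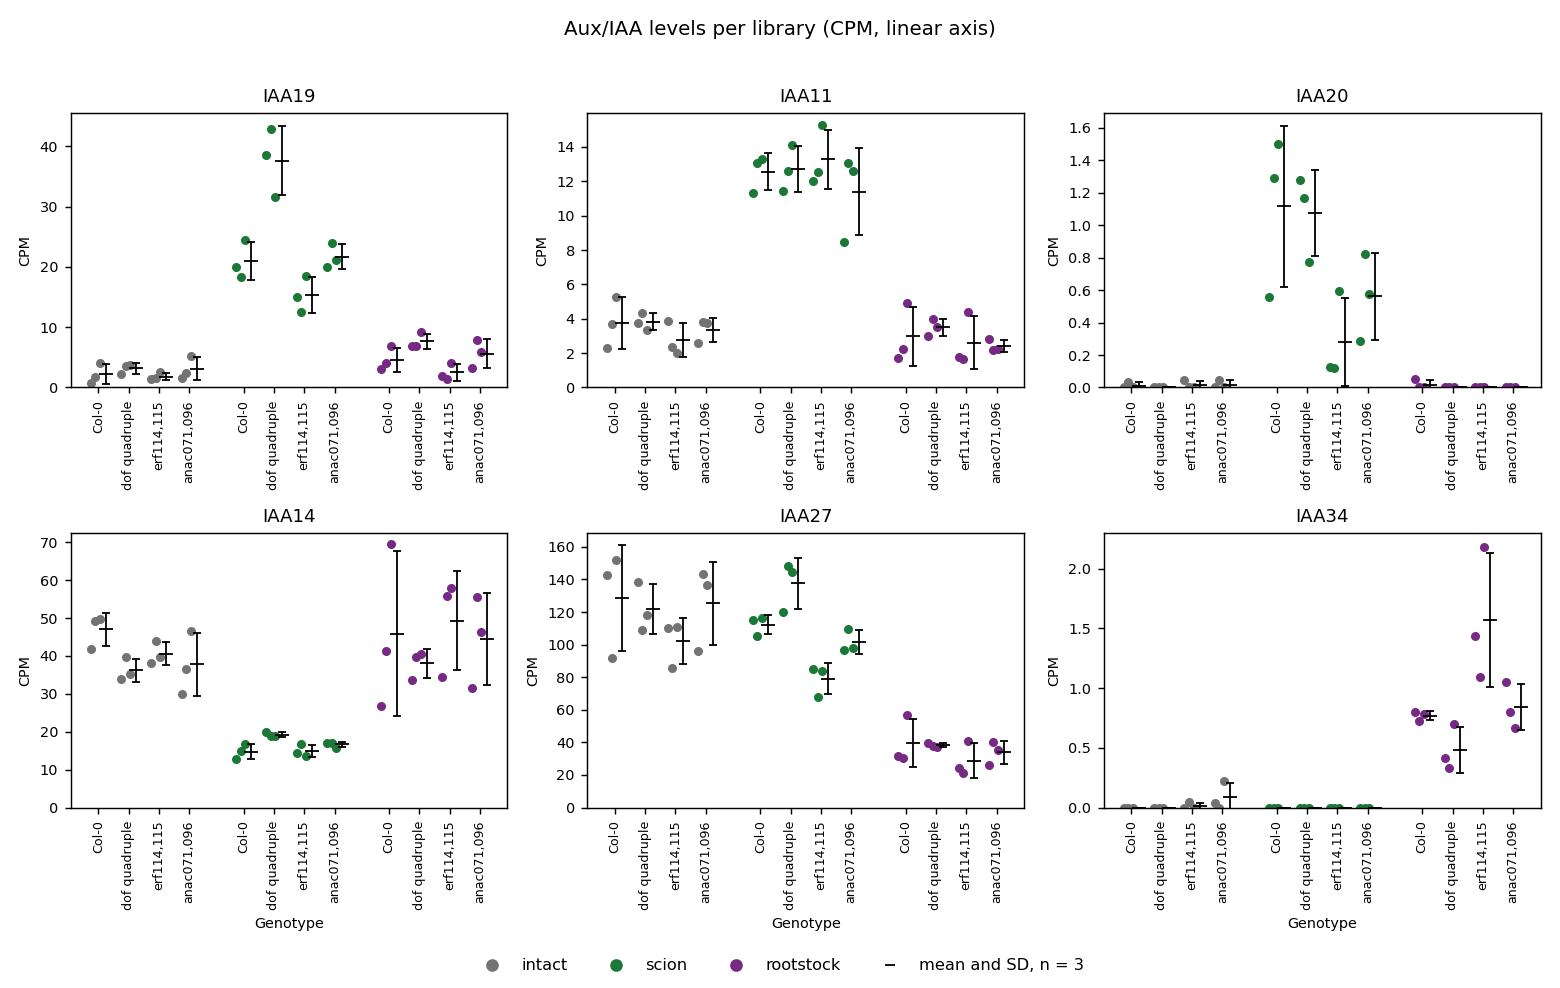
CPM of 6 Aux/IAA genes in every library (points) by genotype and tissue, with the mean and SD of 3 libraries, on linear axes that start at 0. IAA19, IAA11 and IAA20 were highest in scions, IAA14 was lowest in scions, IAA27 was lowest in rootstocks and IAA34 was counted mainly in rootstocks.

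IAA20 and IAA34, which lack the degron core, were each counted almost wholly in a single graft tissue. IAA20 (AT2G46990, chr2:19307714-19309071), which disturbs vascular pattern when overexpressed, was at 0.558, 1.29 and 1.5 CPM in the Col-0 scions, with 1 count in the intact libraries together and 1 in the rootstocks. The ratio of scion to intact levels was 80.1, with a 95% counting interval from 14.0 to 3198, and that to rootstocks 69.6 (12.2 to 2781). IAA34 (AT1G15050, chr1:5181991-5183413) was at 0.797, 0.726 and 0.783 CPM in the Col-0 rootstocks and at 0 in all intact and scion libraries. Against a floor of 3 counts over a group, it was at least 18.4-fold higher in rootstocks than in intact tissue and at least 20.7-fold higher than in scions. AT1G15060, which overlaps IAA34 on the same strand, was at 29.2 ± 1.75, 18.8 ± 2.28 and 25.6 ± 2.26 CPM in the 3 tissues, so that some counts of IAA34 may belong to either locus. IAA20 was at 1.17 CPM or more in 2 of 3 dof quadruple scions, and in no intact or rootstock library of any genotype was it above 0.0498. IAA34 was above 0.3 CPM in every rootstock library of the 4 genotypes and highest in erf114,115 at 1.43, 1.09 and 2.19. IAA30, a close relative of IAA20, was at 0.280 to 0.826 CPM in intact Col-0 libraries and at 2.68 to 3.32 in scions, where it rose, a call lost without intact replicate 2. IAA31, of the same group, did not pass in Col-0 or dof quadruple scions, but it rose in erf114,115 scions, where it was at 0.664, 0.607 and 1.02 CPM with 2 counts in the intact libraries together (adjusted p 7.73e-04), and in anac071,096 scions, at 0.246, 0.430 and 0.503 CPM with 1 count in intact tissue (adjusted p 0.00468). The ratio of levels was 28.8 (counting interval 7.69 to 242.4) in the first and 26.2 (4.37 to 1065) in the second. IAA20 and IAA34 passed the filter on low counts only through the graft tissue where they were high, so their calls follow from that and are given as a description. The intact libraries of IAA31 in erf114,115 and anac071,096 also held too few counts for it, and these rises are given in the same way. The untested members were at or near 0, with IAA15 at 0.0346 CPM in 1 library and 0 in the others.

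ARF5 (AT1G19850, chr1:6886669-6891404, plus strand) was the only ARF gene that rose in either graft tissue of Col-0. It stood at 16.5, 17.9 and 10.2 CPM in intact tissue, 70.1, 80.7 and 71.2 in scions and 61.4, 62.1 and 57.9 in rootstocks. The 6 graft libraries were all above 57 CPM and the 3 intact ones all under 18. It rose by 2.31 ± 0.20 in scions (adjusted p 4.75e-11) and by 2.02 ± 0.19 in rootstocks (adjusted p 7.85e-10). AT1G19860, which overlaps ARF5 on the opposite strand, was at 13.6 ± 3.02, 11.3 ± 0.571 and 14.6 ± 0.905 CPM in these tissues. The other activators of class A went down or did not pass. ARF8, which drives flower maturation and adventitious rooting with ARF6, was at 127, 171 and 166 CPM in intact tissue against 81.5, 91.9 and 93.3 in scions and 94.1, 108 and 98.8 in rootstocks. It fell by 0.80 and 0.63 (adjusted p 2.45e-04 and 0.00416), and ARF6 and ARF19 passed in neither tissue.

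Of the class B genes, known as repressors in transient assays, 6 of 7 fell in Col-0 scions and 7 of 7 in Col-0 rootstocks. Of all loci, 25.2% fell in these scions and 17% in these rootstocks. In the scions of all 4 genotypes the genes of this class that fell were ARF4, ARF11 and ARF18. ARF18 (AT3G61830) was at 16.1, 19.9 and 13.6 CPM in intact tissue, 5.02, 3.69 and 5.46 in scions and 3.64, 4.11 and 4.98 in rootstocks. It fell by 1.80 (SE 0.24, adjusted p 2.15e-07) and by 1.96 (SE 0.24, adjusted p 1.02e-07). ARF11 was at 6.02, 16.1 and 7.94 CPM in intact tissue, 2.12, 1.97 and 2.63 in scions and 4.33, 5.00 and 2.29 in rootstocks, a fall by 2.16 (SE 0.47, adjusted p 2.96e-04) and by 1.36 (SE 0.46, adjusted p 0.0186). The rootstock call of ARF11 was lost without intact replicate 2 or rootstock replicate 3. ARF1 (AT1G59750), which acts with ARF2 in ageing and floral shedding, was at 56.2, 72.2 and 59.1 CPM in intact tissue, 52.0, 45.3 and 50.6 in scions and 24.3, 22.1 and 26.4 in rootstocks. It fell in rootstocks by 1.37 (SE 0.19, adjusted p 7.88e-07), while its scion change of -0.34 ± 0.19 did not pass. ARF2, ARF3, ARF4 and ARF9 fell in both tissues, by 0.35 (ARF3) to 0.91 (ARF9) in scions and by 0.87 (ARF3) to 1.16 (ARF4) in rootstocks. In scions the calls of ARF2 and ARF3 were lost without intact replicate 2.

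The class C genes, targets of miR160, fell more in scions than the median ARF gene did, but their intact libraries were uneven. ARF17, known as a brake on adventitious rooting, was at 6.11, 11.1 and 6.84 CPM in intact tissue, 1.86, 1.80 and 1.78 in scions and 4.68, 5.80 and 3.97 in rootstocks. It fell by 2.15 in scions (SE 0.50, adjusted p 5.44e-04), where its libraries were all under the other 6. ARF10, which with ARF16 shapes the root cap, was at 14.9, 55.1 and 20.7 CPM in intact tissue, 8.85, 8.98 and 9.19 in scions and 17.1, 23.6 and 22.6 in rootstocks. Its scion fall by 1.75 (SE 0.52, adjusted p 0.00576) was lost without intact replicate 2 (adjusted p 0.132). ARF16 was at 15.9, 37.6 and 17.2 CPM in intact tissue, 6.36, 8.54 and 9.84 in scions and 8.42, 12.9 and 6.83 in rootstocks. It fell by 1.52 and 1.33, both calls lost without intact replicate 2. Intact replicate 2 of Col-0 was also the highest intact library for ARF7, at 77.2, 148 and 55.8 CPM, and for ARF19, at 16.2, 45.9 and 8.86, and the scion call of ARF7 was lost without it. ARF7, ARF10, ARF16, ARF17 and ARF19 were each highest in replicate 2 of Col-0 intact tissue and rootstocks, of dof quadruple intact tissue and rootstocks and of all erf114,115 tissues. In dof quadruple and anac071,096 scions each was lowest in replicate 2. In Col-0 scions and in anac071,096 intact tissue and rootstocks none of them was highest in replicate 2. In erf114,115 scions and rootstocks ARF10 was at 6.39, 33.9 and 10.4 and at 12.2, 50 and 18.1 CPM. Without Col-0 intact replicate 2, 20 of the 26 members called in scions were still called. What set that library apart was not tested.

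**Figure D3:**
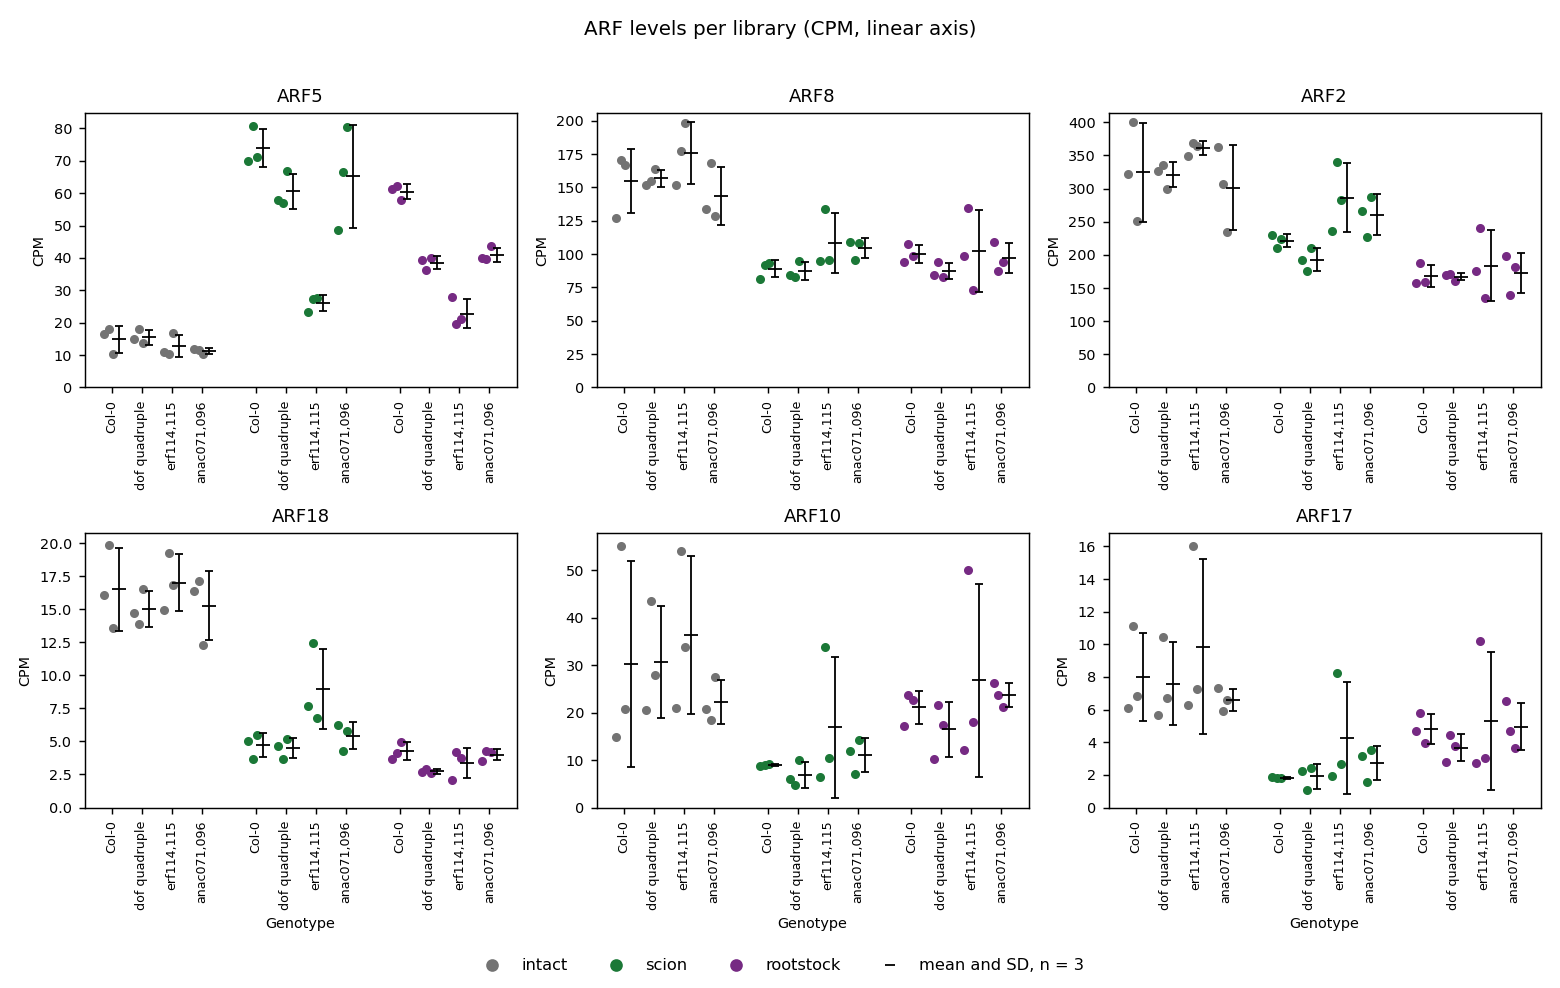
CPM of 6 ARF genes in every library (points) by genotype and tissue, with the mean and SD of 3 libraries, on linear axes that start at 0. ARF5 was highest in graft tissues, at 70.1 to 80.7 CPM in Col-0 scions against 23.4 to 27.7 in erf114,115 scions, while ARF8, ARF2 and ARF18 were highest in intact tissue.

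In the tissue below the junction Aux/IAA genes moved in both directions. In Col-0 rootstocks 5 Aux/IAA genes rose and 8 fell, and 1 ARF gene rose and 10 fell, with 22.6% of all loci rising and 17% falling. Among the 5 were IAA5 and IAA34, which passed the filter only through graft libraries. The medians were -0.12 for Aux/IAA, -0.94 for ARF and 0.03 for all loci, and 20 of the 24 called members did not overlap with intact tissue. IAA27 (AT4G29080) was at 143, 91.5 and 152 CPM in intact tissue, 115, 106 and 116 in scions and 31.5, 30.6 and 56.6 in rootstocks. It fell in rootstocks by 1.70 (SE 0.24, adjusted p 7.24e-07), and its opposite-strand neighbour AT4G29070 was at 27.3 ± 6.99, 9.81 ± 1.25 and 23.7 ± 3.81 CPM in the 3 tissues. IAA2 (AT3G23030), an auxin-response gene often used as a reporter, was at 42.1, 59.6 and 44.5 CPM in intact tissue and 56.4, 86.6 and 126 in rootstocks, which overlapped. Its rise by 0.88 ± 0.26 (adjusted p 0.00708) was lost without rootstock replicate 3 (adjusted p 0.105). IAA8 and IAA13 fell by 0.65 and 0.75, and IAA7 and IAA4 by 0.78 and 0.57. Without Col-0 rootstock replicate 1, the library that stood apart, 21 members were called: IAA4, IAA12, ARF7 and ARF16 were lost and IAA19 was gained, so that 6 Aux/IAA genes rose and 6 fell. Without Col-0 intact replicate 2, 20 were called, and IAA4, ARF7, ARF11 and ARF16 were lost. Without rootstock replicate 3, 3 Aux/IAA genes rose and 8 fell.

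Scion and rootstock were then compared directly. In Col-0, 8 Aux/IAA genes were higher in the scion and 4 in the rootstock, and 3 ARF genes were higher in the scion and 1 in the rootstock, where 23.5% of all loci were higher and 22.7% lower in the scion. IAA20 is among the 8 and IAA34 among the 4, and each passed the filter only through the tissue where it was high. Among members above 5 CPM, IAA19 (2.19 ± 0.43, adjusted p 1.31e-04) and IAA11 (2.09 ± 0.35, adjusted p 1.27e-05) led the scion side. IAA8, IAA9 and IAA27, a group with long N-terminal parts, were all higher in the scion, at 0.90 ± 0.16, 0.71 ± 0.16 and 1.5 ± 0.23. IAA8 was at 162, 142 and 170 CPM in scions and 77.3, 67.8 and 108 in rootstocks, without overlap. IAA13, the close relative of IAA12, was at 42.3, 37.1 and 42.6 against 19.4, 22.6 and 31.9 CPM (0.72 ± 0.20, adjusted p 0.00461). Of the ARF genes, ARF1 (1.02 ± 0.19), ARF4 (0.57 ± 0.16) and ARF3 (0.52 ± 0.14) were higher in the scion. On the rootstock side were IAA14 (-1.63 ± 0.24, adjusted p 1.69e-06), IAA16, at 285, 327 and 325 CPM in scions and 512, 541 and 643 in rootstocks (-0.86 ± 0.13, adjusted p 5.45e-06), and IAA2 (-0.71 ± 0.26, adjusted p 0.0258). IAA2 lost its call under upper-quartile scaling and without scion replicate 1 or 2 or rootstock replicate 3, and ARF17 lost its own without any of the scion libraries or rootstock replicate 2. The log2 change of ARF5 between the sides was 0.29 ± 0.19 (adjusted p 0.207). Without Col-0 rootstock replicate 1, the 16 called members were all still called. These comparisons share libraries with those against intact tissue.

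Levels of several lists of tissue markers differed between the tissues compared. The 3 root hair markers summed to at most 0.399 CPM in any Col-0 library. The 3 shoot meristem markers summed to 2.13 to 3.72 CPM in intact tissue, 4.73 to 8.41 in scions and 0 to 0.349 in rootstocks, with CLV3 at 0 in all of these libraries and WUS at 0 in the intact and scion ones. The 2 green tissue markers summed to 12970 to 18250 CPM in intact Col-0 libraries, 2341 to 2870 in scions and 6144 to 8180 in rootstocks. The 3 xylem markers summed to 89.0 to 143.6, 75.8 to 151.1 and 7.01 to 23.8 CPM, and the 3 phloem markers, of which RTM1 was at 0, to 160.9 to 212.9, 63.9 to 93.5 and 73.9 to 78.5. The 2 cambium markers summed to 38.7 to 51.4, 75.5 to 87.6 and 63.7 to 74.6 CPM, and the 2 epidermis markers to 117.3 to 143.7, 60.6 to 70.6 and 45.3 to 58.5. The 3 endodermis markers summed to 41.3 to 58.1, 34.4 to 54.1 and 55.4 to 76.9 CPM. Their part in the changes of the Aux/IAA and ARF genes was not tested. Fewer cells of a type and less RNA per cell cannot be told apart in such pieces.

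The mutant tissues were compared in the same way. In dof quadruple scions 9 Aux/IAA genes rose and 2 fell and 1 ARF gene rose and 11 fell, against 28.7% and 25.6% of all loci. In its rootstocks 5 and 7 Aux/IAA and 1 and 10 ARF genes rose and fell (22.9% and 17.4% of loci). Its scion was higher than its rootstock for 9 Aux/IAA and 5 ARF genes and lower for 3 and 0 (19.7% and 20.1% of loci). In erf114,115 scions 9 Aux/IAA genes rose and 6 fell and 1 ARF gene rose and 8 fell (28.7% and 21.6% of loci). In erf114,115 rootstocks 6 and 6 Aux/IAA and 1 and 10 ARF genes did so (26.9% and 17.9%). Between its tissues, 9 Aux/IAA and 5 ARF genes were higher in the scion and 4 and 0 lower (23.6% and 23.1%). In anac071,096 scions 9 Aux/IAA genes rose and 9 fell and 1 ARF gene rose and 5 fell (27.0% and 22.9%). Its rootstocks had 6 and 7 Aux/IAA and 1 and 8 ARF genes rising and falling (21.7% and 16.4%). Its scion was higher for 7 Aux/IAA and 5 ARF genes and lower for 5 and 0 (23.3% and 22.6%). In each mutant graft tissue set against intact tissue, the ARF gene that rose was ARF5. The Aux/IAA counts hold members that passed the filter only through the tissue where they were high. These were IAA20 in every mutant scion and IAA34 in every mutant rootstock, also between the tissues. IAA5 in the erf114,115 graft tissues and IAA31 in erf114,115 and anac071,096 scions were such members as well. Single libraries decided some of these counts: the 8 falling ARF genes of erf114,115 scions were 5 without intact replicate 2 and 4 without scion replicate 3, and the 5 of anac071,096 scions were 3 without scion replicate 2. In rootstocks, the 6 Aux/IAA genes that rose in erf114,115 were 2 without rootstock replicate 3, and the 7 that fell in dof quadruple were 4 without rootstock replicate 1. Between the tissues, the 5 ARF genes higher in the scion became 3 in dof quadruple without scion replicate 1 or 3 and 2 without rootstock replicate 1, and in anac071,096 they became 3 without scion replicate 3 or rootstock replicate 2. The 5 Aux/IAA genes lower in anac071,096 scions became 3 without scion replicate 1 or rootstock replicate 2.

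Some members were called in the same direction in all 4 genotypes. In scions 7 of the 40 tested members rose in every genotype: IAA1, IAA5, IAA19, IAA9, IAA11, IAA20 and ARF5, against 20.3% of all loci. Another 7 fell in every genotype: IAA14, IAA16, ARF8, ARF4, ARF11, ARF18 and ARF17 (16.3% of loci). In rootstocks IAA1, IAA26, IAA34 and ARF5 rose in all 4 (15.1% of loci). IAA34 was there by the filter, as IAA20 was in scions and, in Col-0 and erf114,115, IAA5. In the rootstocks of all 4 genotypes 13 members fell: IAA3, IAA4, IAA8, IAA27, IAA29, ARF8, ARF1, ARF2, ARF3, ARF4, ARF9, ARF11 and ARF18 (10.6%). In the direct comparison 10 members were higher in the scion in all 4 genotypes, namely IAA19, IAA8, IAA9, IAA27, IAA11, IAA29, IAA20, ARF1, ARF3 and ARF4 (13.1%), and IAA14, IAA16 and IAA34 were lower (15.9%). IAA20 and IAA34 were in these lists by the filter too. IAA19 reached 38.5, 42.9 and 31.6 CPM in dof quadruple scions, 15, 12.6 and 18.6 in erf114,115 scions and 20.0, 23.9 and 21.2 in anac071,096 scions, with log2 changes from intact tissue of 3.56 ± 0.45, 3.07 ± 0.46 and 2.83 ± 0.45. IAA11 rose in these scions by 1.73 ± 0.34, 2.28 ± 0.35 and 1.76 ± 0.34.

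Set against Col-0 in the same tissue, few members were called, and ARF5 in erf114,115 had the largest log2 difference of those called. In erf114,115 scions ARF5 was at 23.4, 27.4 and 27.7 CPM against 70.1, 80.7 and 71.2 in Col-0, a log2 difference of -1.5 ± 0.19 (adjusted p 1.1e-05). In erf114,115 rootstocks it was at 27.8, 19.5 and 21.1 against 61.4, 62.1 and 57.9 CPM, a difference of -1.41 ± 0.19 (adjusted p 4.47e-05), and without Col-0 rootstock replicate 1 it was -1.39 (adjusted p 3.73e-04). No erf114,115 library reached the lowest Col-0 library in either tissue. In intact tissue it was at 11, 10.5 and 16.7 against 16.5, 17.9 and 10.2 CPM, which overlapped (-0.22 ± 0.19, adjusted p 0.969). Within erf114,115, ARF5 still rose from intact tissue by 1.04 ± 0.19 in scions (adjusted p 3.52e-05) and by 0.84 ± 0.19 in rootstocks (adjusted p 5.96e-04), the second call lost when those 6 libraries were fitted alone (adjusted p 0.0754). When only the 6 rootstock libraries of erf114,115 and Col-0 were fitted, its adjusted p was 0.104. Of all loci, 0.0308% differed from Col-0 when intact tissue was compared, 0.893% when scions were and 0.380% when rootstocks were. ARF5 was the 1 member called in each of the grafted tissues, and 0 were called in intact tissue, where 1 had an unadjusted p under 0.05 and DESeq2 called 0.

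ARF5 was also lower in the rootstocks of dof quadruple, at 39.3, 36.2 and 40.1 CPM (-0.65 ± 0.19, adjusted p 0.0444). This call was lost on leaving out any of the 6 libraries. IAA28 (AT5G25890), which takes part in choosing lateral root founder cells, was at 41.0, 32.1 and 40.2 CPM in dof quadruple rootstocks and 31.6, 51.8 and 40.5 in anac071,096 rootstocks, against 22.2, 26.3 and 27.3 in Col-0. The mutant libraries lay above the Col-0 ones, at 0.58 ± 0.16 (adjusted p 0.0351) and 0.71 ± 0.16 (adjusted p 0.0188). The 3 endodermis markers summed to 285 to 348 CPM in dof quadruple rootstocks and to 52.9 to 85.3 in anac071,096 rootstocks, against 55.4 to 76.9 in Col-0 rootstocks. Of these markers CASP1 was at 212, 237.6 and 183.7 CPM in dof quadruple rootstocks against 6.38, 4.03 and 7.78 in Col-0, while SCR overlapped, and their part in the ARF5 and IAA28 values was not tested. In dof quadruple the IAA28 call was lost without any of the 3 Col-0 libraries or without mutant replicate 1 or 3. Without Col-0 rootstock replicate 1, IAA28 in anac071,096 had an adjusted p of 0.182. The anac071,096 call was also lost without that mutant's replicate 2 (0.296) or 3 (0.0570). In anac071,096 rootstocks ARF5, at 39.9, 39.5 and 43.6 CPM, differed by -0.56 ± 0.19 without passing (adjusted p 0.344).

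Apart from these, 0 members were called against Col-0. In dof quadruple the share of all loci that differed was 4.59% for intact tissue, 1.5% for scions and 3.73% for rootstocks, and 0, 0 and 2 members were called. In anac071,096 the shares were 0.0411%, 0.385% and 0.863%, with 0, 0 and 1 called. At an unadjusted p under 0.05 there were 2 members in dof quadruple intact tissue, 3 in its scions, 2 in anac071,096 intact tissue and 2 in its scions. DESeq2 called 0, 1, 0 and 0 there, the 1 being IAA29. IAA29 was at 7.64, 4.73 and 5.19 CPM in dof quadruple scions against 2.19, 2.24 and 3.00 in Col-0 scions, without overlap, and edgeR gave 1.24 ± 0.35 (adjusted p 0.0817). In erf114,115 scions IAA29 was at 5.76, 5.58 and 6.25 CPM (1.24 ± 0.35, adjusted p 0.0962), ARF18 at 7.67, 12.4 and 6.79 CPM (0.93 ± 0.24, adjusted p 0.0515) and IAA26 at 41.8, 40.3 and 38.9 CPM (-0.59 ± 0.16, adjusted p 0.0810). DESeq2 called these 3 as well as ARF5 there.

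**Figure D4:**
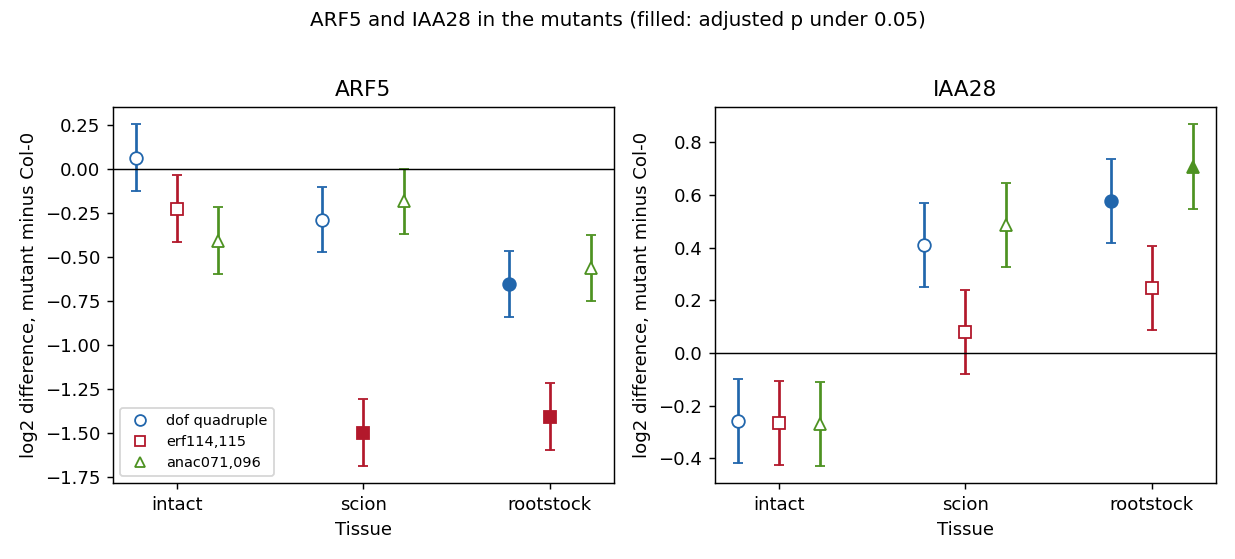
Log2 difference of ARF5 (left) and IAA28 (right) between each mutant and Col-0 in intact tissue, scion and rootstock, with bars of 1 SE and filled symbols where the adjusted p was under 0.05. ARF5 lay at -1.5 and -1.41 in erf114,115 scions and rootstocks, and IAA28 at 0.58 and 0.71 in dof quadruple and anac071,096 rootstocks.

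Whether a member differed between tissues by another amount in a mutant than in Col-0 was asked by the difference of responses. No group was cut and left ungrafted, so grafting, wounding and position along the hypocotyl cannot be told apart. edgeR called 0 of the 40 members in all 9 such comparisons. In dof quadruple 0.945%, 0.899% and 0.154% of all loci were called for scion minus intact, rootstock minus intact and scion minus rootstock, and 3, 3 and 1 members had an unadjusted p under 0.05. In erf114,115 the shares were 0.0513%, 0.0462% and 0.0205%, with 5, 3 and 2 members, and in anac071,096 0.0462%, 0.205% and 0.00%, with 2, 2 and 1. DESeq2 called 1, 1 and 0 members in dof quadruple, 1, 1 and 0 in erf114,115 and 0, 1 and 0 in anac071,096. These were IAA29 and IAA28 in dof quadruple, ARF5 in erf114,115 scions and rootstocks, and IAA28 in anac071,096. The edgeR estimates were -1.27 ± 0.27 and -1.18 ± 0.27 for ARF5 in erf114,115 (adjusted p 0.0635 and 0.141), 0.84 ± 0.23 and 0.98 ± 0.23 for IAA28 in the rootstocks of dof quadruple and anac071,096 (0.0746 and 0.0655), and 1.62 ± 0.49 for IAA29 in dof quadruple scions (0.147). A lower ARF5 in grafted erf114,115 tissue was thus called against Col-0. The difference in its change from intact tissue did not pass with edgeR and passed with DESeq2, and in scions also under RLE scaling and in some fits without 1 library.

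The rest of the pathway was followed through lists of its parts. The counts of its lists in Col-0 are read beside the same shares of all loci, 29.0% rising and 25.2% falling in scions and 22.6% and 17% in rootstocks. All 6 auxin receptor genes were tested, and 6 fell in Col-0 scions and 5 in rootstocks. TIR1 was at 263, 204 and 249.6 CPM in intact tissue, 121, 103 and 113 in scions and 168, 163 and 232 in rootstocks. It fell by 1.09 in scions (SE 0.16, adjusted p 1.22e-06), and the rootstock change of -0.35 ± 0.16 did not pass. AFB1, a receptor known for rapid responses in roots, was at 60.1, 65.6 and 46.0 CPM in intact tissue, 27.3, 25.3 and 36.8 in scions and 12.5, 15.3 and 19 in rootstocks, without overlap between the tissues. It fell by 0.94 and 1.88. AFB3 fell by 1.24 and 1.01, AFB5 by 0.75 and 0.61 and AFB2 by 0.64 and 0.43. AFB4 fell by 0.41 and 0.44 with adjusted p of 0.0479 and 0.0461, and both calls were lost on leaving out any of the 3 intact libraries. The rootstock call of AFB2 was also lost without intact replicate 1 or 2 or rootstock replicate 1 or 3. In the mutant scions 5 receptors fell in each genotype and 0 rose. Of all loci, 25.6% fell and 28.7% rose in dof quadruple scions, 21.6% and 28.7% in erf114,115 and 22.9% and 27.0% in anac071,096.

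Of the 5 corepressor genes, 2 fell in Col-0 scions and 1 in rootstocks. TPL (TOPLESS) was at 174, 189 and 155 CPM in intact tissue, 103, 108 and 129 in scions and 195, 222 and 217 in rootstocks. It fell by 0.61 in scions (SE 0.17, adjusted p 0.00386) and lay 0.90 below rootstocks on the log2 scale. TPR2 fell by 0.57 and 0.55, the second call lost without intact replicate 2. Of 7 genes for the ubiquitin ligase and the RUB conjugation that activates it, 3 rose in scions, 2 rose in rootstocks and 0 fell. AXR1, a subunit of the RUB-activating enzyme, was at 14.0, 14.3 and 16.2 CPM in intact tissue, 26.4, 27.8 and 28.3 in scions and 23.7, 23.7 and 27.2 in rootstocks, a rise by 0.89 ± 0.14 and 0.75 ± 0.14. CAND1, which recycles the ligase, rose by 0.68 ± 0.19 in scions.

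Genes that auxin switches on did not move as a block. Of the group II GH3 genes, which join auxin to amino acids, 4 of 7 were tested, and 1 rose in scions while 3 fell in rootstocks. GH3.5 was at 72.8, 78.4 and 84.0 CPM in intact tissue, 196, 237 and 228 in scions and 24.2, 25.5 and 35.5 in rootstocks. It rose by 1.49 ± 0.22 in scions and fell by 1.47 in rootstocks (adjusted p 8.75e-07 and 2.18e-06), and the tissues did not overlap. Of the 10 SAUR genes, small growth-linked auxin-response genes, 1 rose and 4 fell in scions and 1 rose and 6 fell in rootstocks. SAUR20 was at 9.41, 13.3 and 11 CPM in intact tissue, 2.90, 2.41 and 4.17 in scions and 0.648, 1.45 and 4.25 in rootstocks. Reads of SAUR19 to SAUR24 may be shared between near-identical copies, so single values are uncertain. Of 7 ARF targets 4 were tested. LBD16, a target of ARF7 and ARF19 in lateral root founder cells, was at 0.413, 0.350 and 0.321 CPM in intact tissue, 27.6, 24.2 and 18 in scions and 16.1, 12.3 and 8.06 in rootstocks. Its log2 changes were 5.99 ± 0.50 and 5.06 ± 0.49. In Col-0 only its graft libraries held enough counts for the filter, so this rise is given as a description. TMO5, a target of ARF5 in the embryo's vascular cells, was at 18.5, 16.9 and 24.6 CPM in intact tissue, 25.2, 33.7 and 32.6 in scions and 5.48, 7.5 and 7 in rootstocks. It fell in rootstocks by 1.58 (SE 0.29, adjusted p 4.16e-05), while ARF5 was higher there, and its scion change of 0.61 ± 0.27 did not pass.

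Of 10 loci that make the small RNAs of ARF genes, 3 passed the filter. MIR167D, a precursor of the miRNA that cuts ARF6 and ARF8, was at 2.09, 2.22 and 2.63 CPM in Col-0 rootstocks, with 2 counts in the intact libraries together and 6 in the scions. It was higher in rootstocks than in intact tissue (adjusted p 1.62e-05) and than in scions (adjusted p 6.97e-05). In Col-0 only its rootstock libraries held enough counts for the filter, so these calls are given as a description. MIR160C was at 0, 0.210 and 0.642 CPM in intact tissue, had 1 count in the scions together and was at 0.399, 0.363 and 0.448 in rootstocks. Its scion was lower than intact tissue (adjusted p 0.0129) and than rootstock (adjusted p 0.00635), and the first call was lost without intact replicate 3 or scion replicate 2. No Col-0 group held enough counts for the filter in all its libraries, so these calls are also given as a description. TAS3, the source of small RNAs against ARF2, ARF3 and ARF4, was at 2.16, 1.5 and 2.43 CPM in intact tissue and 0.446, 0.746 and 1.17 in scions. It fell by 1.36 in scions (adjusted p 0.0167), a call lost without intact replicate 3 or scion replicate 1 or 2. In dof quadruple TAS3 was at 3.35, 4.03 and 3.87 CPM in scions, above Col-0 by 2.25 ± 0.48 (adjusted p 0.00590), and at 2.56, 2.82 and 4.20 in rootstocks (1.94 ± 0.48, adjusted p 0.0168). Precursor levels in polyA RNA are not levels of the mature small RNAs. The 8 ARF genes outside the 15, ARF12 to ARF15 and ARF20 to ARF23, did not pass the filter.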

How the data were processed

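Reads of 36 polyA RNA libraries were counted per locus, and the deposited table holds raw counts as whole numbers. The authors used fastp, HISAT2, HTSeq, DESeq2 and the build TAIR10, per the submitters' processing notes. Neither strand setting nor annotation release is given in the sources used here, so counts of the 13 members that overlap another locus are uncertain. All columns were used, and 0 rows named no locus.

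With TMM factors (0.785 to 1.31) and loci kept by filterByExpr (minimum count 10), counts went into two-sided robust quasi-likelihood tests (edgeR 4.0.16, R 4.3.3) in 1 fit of 12 groups (24 residual degrees of freedom). Adjustment was by Benjamini-Hochberg over 19476 loci within each of 30 comparisons, with a threshold of 0.05. No replicate pair was within sampling noise of being identical (chi-square per locus at least 15.2 over 36 pairs). PCR copies cannot be recognised, so intervals and floors cover only the error of counting.

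The members, gene lists and tests were chosen with earlier results of these data known. All 44 members may be named. Values per library were given for up to 6 members each way per tissue comparison and 3 per mutant comparison that passed and reached 5 CPM, with other tissues, other members and near misses added for context after their values were seen. Of the other lists, all receptors and up to 2 passing genes each way were named. Gene models, sequences and coordinates are RefSeq's on TAIR10.1, the version of TAIR10 in use there. Tests were tried on simulated data. Alternatives were RLE and upper-quartile scaling, no filter, DESeq2 1.42.0, a replicate block, the compared groups alone, and leaving out each library.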

Additional observations from a re-analysis of the deposited data

How the results depend on the processing

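No alternative reversed the direction of a called member. In the 12 tissue comparisons the number of members called stayed within 1.5 times under every alternative except the fit of the compared groups alone, which gave 15 in place of 24 in erf114,115 scions and 15 in place of 23 in its rootstocks. Leaving out 1 library gave 20 to 26, 19 to 23 and 14 to 16 calls in Col-0 (scion, rootstock, scion against rootstock), 21 to 24, 19 to 22 and 15 to 16 in dof quadruple, 16 to 28, 18 to 23 and 16 to 19 in erf114,115 and 20 to 23, 19 to 23 and 14 to 16 in anac071,096. By family and direction, the 2 falling Aux/IAA genes of dof quadruple scions were 5 with no filter or the compared groups alone and 4 with DESeq2, the 6 rising ones of erf114,115 rootstocks were 3 under upper-quartile scaling and 2 with the compared groups alone, and the 8 falling ARF genes of erf114,115 scions were 4 with the compared groups alone.

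Counts in the mutant comparisons are small, and a single call moves them. Compared groups alone gave 2 in dof quadruple scions, 0 in erf114,115 rootstocks, 1 in anac071,096 scions, 0 in its rootstocks and 1 for the scion response of dof quadruple. DESeq2 gave 1 in dof quadruple scions, 4 and 2 in erf114,115 scions and rootstocks, and 1 each for the scion and rootstock responses of dof quadruple and of erf114,115 and the rootstock response of anac071,096. Upper-quartile scaling gave 1 in dof quadruple rootstocks and 1 for its rootstock response, no filter gave 1 in dof quadruple rootstocks, and RLE scaling gave 2 in erf114,115 scions and 1 for their response. Leaving out 1 library gave 0 to 1 in dof quadruple rootstocks, 1 to 2 in erf114,115 scions, 0 to 1 in anac071,096 rootstocks, and 0 to 1 for the rootstock response of dof quadruple, the scion response of erf114,115 and the rootstock response of anac071,096. The cause of these shifts was not tested. Upper-quartile scaling moved the median of all loci by up to 0.16 on the log2 scale and raised the share of higher calls between Col-0 scion and rootstock to 59.3%.

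Same-numbered libraries did not meet the rule for pairing, which asks for a correlation over 0.1 in each pair: over 198 pairs their deviations correlated from -0.38 to 0.68 with a median of 0.09, against a median of -0.05 for different numbers. As a hint from the data that numbers may share something, 29 of 36 libraries correlated best with their own number. With the replicate number as a block, 3 members were called in erf114,115 scions (ARF5, with IAA26 and ARF18 added) and 2 in its rootstocks (ARF5, with IAA26 added), and the other 28 counts stayed within 1.5 times. With 3 libraries a group, small changes of low members such as IAA10 could not be resolved.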
